A study of Homo sapiens with 6 samples.

Results

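The ATP-binding cassette (ABC) genes were read out of the counts of H295R cells and of a subpopulation sorted from them. The members are the rows of the count table whose gene symbol is ABC, a subfamily letter from A to G and a number, which gave 46 of 57341 named genes. They comprised 12 ABCA, 9 ABCB, 12 ABCC, 4 ABCD, 1 ABCE, 3 ABCF and 5 ABCG genes. CFTR, TAP1 and TAP2 belong to the same superfamily under other symbols and are described apart.

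H295R is a human adrenocortical carcinoma line that makes steroid hormones, and 3 replicates of the unsorted parental line were sequenced. The other 3 libraries are labelled as the Ptch1 positive subpopulation, H295R-PM-Ptc+, which the study sorted by flow cytometry for Ptch1, the Hedgehog receptor, at the plasma membrane and then expanded in culture. Both were grown in the same medium without treatment, so no library was of drug-treated cells, and nothing in the labels says whether the replicates came from separate sorts or cultures. The p-values therefore measure the spread between these libraries, which may be technical.

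The direction of every difference rests on the labels. PTCH1 held 441, 559 and 579 counts where the label is H295R and 248, 326 and 319 where it is H295R-PM-Ptc+, so its RNA was lower under the name of the sorted cells (log2 fold change -0.81, standard error 0.15, adjusted p = 0.0207, edgeR). It lost the call without H295R replicate 2 or 3 or H295R-PM-Ptc+ replicate 2, at an adjusted p of 0.0799, 0.0921 and 0.0618. The log2 fold changes in these fits were -0.78, -0.74 and -0.86. With same-numbered replicates paired the adjusted p was 1.72e-06 (edgeR), and the 3 pairs differed by -0.93, -0.75 and -0.76. In the study's supplementary table of normalized values the same columns stand under the exchanged group names, with the same run codes. Under those names PTCH1 RNA would be higher in the sorted cells. The sort was for Ptch1 protein at the membrane, so RNA counts bear on the names but do not decide between them. Each library is therefore called by its label in the deposited table. Each log2 fold change is that of the libraries labelled H295R-PM-Ptc+ over those labelled H295R. If the names of the supplementary table are the right ones, every sign below turns.

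ABC proteins bind and hydrolyse ATP to move lipids, sterols, peptides, metal complexes or drugs across membranes. Members of subfamilies B, C and G became known in cancer because they pump chemotherapeutic agents out of cells, P-glycoprotein (ABCB1) above all, which is also a normal protein of the adrenal cortex. Subfamilies E and F have the ATP-binding domains but no membrane-spanning part and act on ribosomes.

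The 8 adrenocortical marker genes, among them NR5A1, STAR and CYP17A1, were all tested. CYP21A2 alone had an adjusted p under 0.05 (log2 fold change 0.88, adjusted p = 0.00670, edgeR), where 3.73% of all genes were called. Its groups did not overlap. With same-numbered replicates paired, STAR (log2 fold change 0.41, adjusted p = 3.91e-06) and CYP11A1 (-0.25, adjusted p = 0.00100) were called too, in opposite directions, so that 3 of the 8 passed where 22.5% of all genes did. The part of these markers in the results below was not tested. Their summed level was 880 to 1160 CPM (counts scaled by library size) with the label H295R and 958 to 1216 CPM with the other. Fibroblast markers summed to 8.03 to 11.2 CPM, nearly all COL1A1, with LUM at 0, and the endothelial and leukocyte markers to at most 0.235 CPM, with PTPRC and CD68 at 0 in every library. Libraries held 23264403 to 25813247 counted fragments, of which the ABC members took 0.171% to 0.198%.

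The promoters of 3 members are shown because these were the only members that were lower with an adjusted p under 0.05 when same-numbered replicates were paired, and all 3 encode drug efflux pumps. Each runs from 250 bases before to 50 bases after a gene start in RefSeq (GRCh38.p14), 5′ to 3′ on the gene's strand, which is the minus strand for all 3. Where several starts are listed (2 for ABCB1 and 5 for ABCG2) the one with the most GC and CCAAT boxes is given. Capitals mark the GC box (GGGCGG or CCGCCC) and the CCAAT box (CCAAT or ATTGG).
ABCB1, chr7:87600835-87601134: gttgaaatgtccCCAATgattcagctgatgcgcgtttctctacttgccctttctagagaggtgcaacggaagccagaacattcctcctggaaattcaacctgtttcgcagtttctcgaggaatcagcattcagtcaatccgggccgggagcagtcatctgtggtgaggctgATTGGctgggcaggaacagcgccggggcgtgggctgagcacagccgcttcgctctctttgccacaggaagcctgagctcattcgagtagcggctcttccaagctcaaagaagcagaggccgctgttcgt
ABCC4, chr13:95301402-95301701: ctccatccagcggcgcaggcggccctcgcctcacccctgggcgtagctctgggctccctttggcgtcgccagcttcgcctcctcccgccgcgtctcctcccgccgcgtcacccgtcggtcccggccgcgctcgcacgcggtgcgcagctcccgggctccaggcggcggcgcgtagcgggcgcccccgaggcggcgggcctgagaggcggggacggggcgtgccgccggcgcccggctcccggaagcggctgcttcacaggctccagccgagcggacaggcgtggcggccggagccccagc
ABCG2, chr4:88158860-88159159: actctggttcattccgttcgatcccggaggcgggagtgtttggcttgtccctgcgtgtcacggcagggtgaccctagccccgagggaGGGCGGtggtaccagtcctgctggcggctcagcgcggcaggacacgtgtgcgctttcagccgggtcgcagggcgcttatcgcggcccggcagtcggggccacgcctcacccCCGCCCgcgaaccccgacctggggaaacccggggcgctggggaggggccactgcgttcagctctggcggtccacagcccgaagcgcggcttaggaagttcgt

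The 3 windows have little in common by these letters. That of ABCB1 held 2 CCAAT boxes and 16 CpG, that of ABCC4 neither box and 47 CpG, and that of ABCG2 held 2 GC boxes and 33 CpG. None held a TATA box (TATAAA or TTTATA). A GC box was in 44.95% of 35116 listed promoters, a CCAAT box in 34.61% and a TATA box in 11.53%. Of the 46 members 35 had a listed promoter, and TGGGTGGTC or its reverse complement GACCACCCA, the consensus of the Hedgehog factors of the GLI family, was in 0 of these and in 0.2364% of all promoters.

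Counts per length (RPKM, from the summed exons of the main chromosomes) spread the members over a wide range. ABCB1 stood highest, at 87.8 ± 14.3 RPKM under the label H295R and 79.3 ± 12.9 RPKM under H295R-PM-Ptc+ (± SD over 3 libraries, here and below). Next came ABCF2 (37.3 ± 2.83 and 42.0 ± 1.45 RPKM), ABCF1 (34.2 ± 3.13 and 36.9 ± 2.15), the ribosome recycling factor ABCE1 (20.2 ± 3.33 and 18.6 ± 1.95) and ABCF3 (17.2 ± 0.613 and 16.5 ± 0.111). In the libraries labelled H295R the ranges of ± 1 SD overlapped for ABCF2 and ABCF1 and for ABCE1 and ABCF3.

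**Figure D1:**
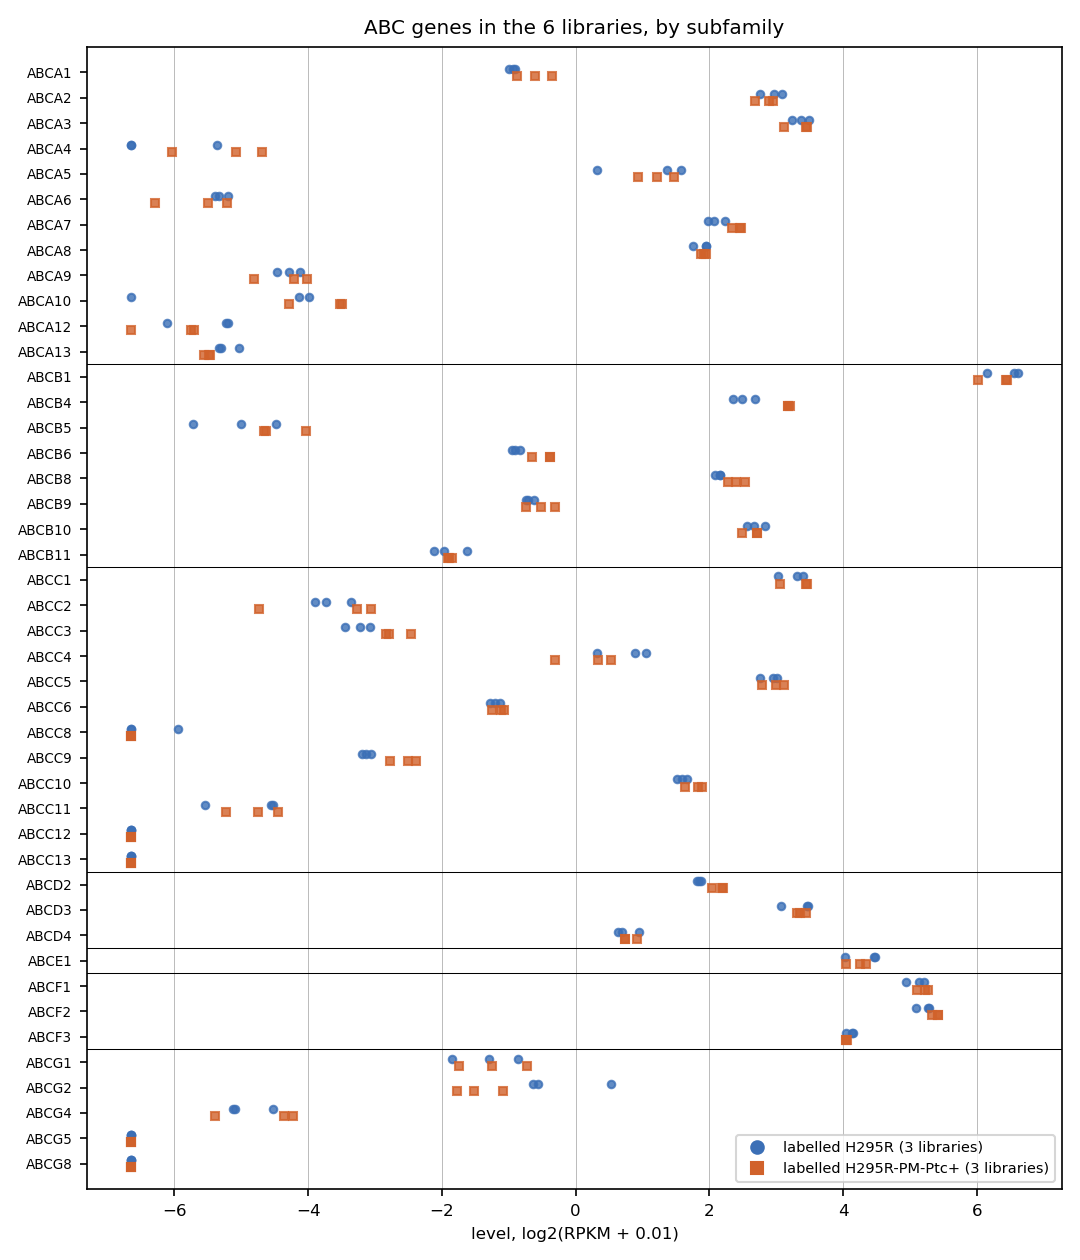
Levels of 44 ABC genes in the 6 libraries, as log2(RPKM + 0.01) on the horizontal axis, with 1 row per gene and lines between subfamilies. Circles are the 3 libraries labelled H295R and squares the 3 labelled H295R-PM-Ptc+. ABCB1 lies farthest to the right in every library, and ABCC12, ABCC13, ABCG5 and ABCG8 lie at the left edge with all 6 points, where the count is 0.

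Of the 46 members, 33 had enough counts to be tested. ABCC12, ABCC13 (a pseudogene in humans) and the sterol exporters ABCG5 and ABCG8 had 0 counts in all 6 libraries, which allows a level of up to 0.129 CPM in the shallowest library (3 counts of its total, counting error only). ABCC8, the sulfonylurea receptor of pancreatic beta cells, held 1 count in 1 library. The other 8 that were not tested were ABCA4, ABCA6, ABCA9, ABCA12, ABCA13, ABCB5, ABCC11 and ABCG4, none with more than 11 counts in any library. Of these, ABCA13 was the only one whose groups did not overlap, with 7, 10 and 7 against 6, 6 and 5 counts.

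Between the groups, 24 of the 33 tested members had a log2 fold change above 0 (72.7%, against 50.2% of all 16710 genes tested), with a median of 0.07 against 0.00 for all genes. Under the exchanged names it would be 9 of the 33. The share moved with the libraries used. Without H295R replicate 1, 17 of the 33 were above 0 and 16 below (51.5%, against 49.7% of all genes), while without any of the other 5 libraries 20 to 24 were above 0. Without replicate 1 of both groups 20 of the 32 members fitted were above 0 (62.5%, against 50% of all genes). By edgeR's quasi-likelihood test 1 member, ABCB4, had an adjusted p under 0.05, with the higher level under the label H295R-PM-Ptc+, where 2.42% of all tested genes were called higher. No member was called lower, where the background was 1.32% (3.73% in either direction). At an unadjusted p under 0.05, 8 members were higher and 2 lower, 10 in all where 17.3% of all tested genes passed, and DESeq2 called 1 lower member (ABCG2) and limma-voom 0. Since the libraries are of whole cultures, fewer cells that carry a transcript and less of it per cell cannot be told apart.

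Same-numbered replicates deviated together across genes, and with the replicate number as a block 9 members were called higher and 3 lower, where 12.1% and 10.4% of all tested genes were called. Those higher included ABCA1, ABCA7, ABCB4, ABCB6, ABCB8, ABCC9, ABCD2 and ABCF2, and those lower were ABCB1, ABCC4 and ABCG2. Together they are 36.4% of the tested members, against 22.5% of all tested genes. In 15 members all 3 same-numbered pairs were higher (26.9% of all tested genes were) and in 4 all 3 were lower (25.7%). The groups did not overlap in 9 tested members that were higher and in 1 that was lower, where the background was 12.4% and 11.2%.

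**Figure D2:**
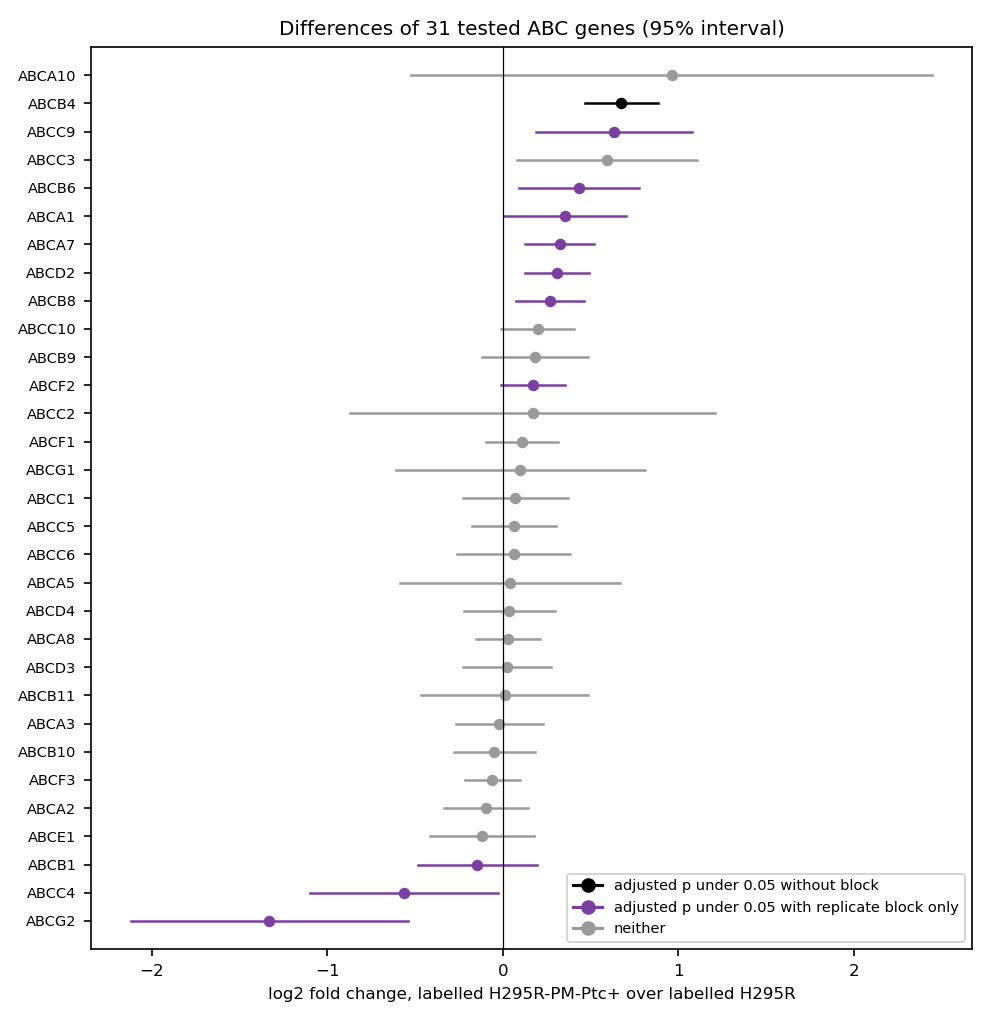
Log2 fold changes of 31 tested ABC genes with their 95% intervals from the fit without a block, libraries labelled H295R-PM-Ptc+ over those labelled H295R. ABCB4 (black) passed an adjusted p of 0.05 in that fit, the 10 purple genes passed only with the replicate number as a block, and ABCG2, ABCC4 and ABCB1 are the lowest 3.

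ABCB4, the phosphatidylcholine transporter of the bile canaliculus, lies on chromosome 7 from 87401697 to 87480435 (GRCh38, as in the deposited table). It held 1147, 1063 and 944 counts in the libraries labelled H295R, or 48.0, 41.9 and 38.2 CPM, and 1767, 1682 and 1562 counts in the others, or 69.1, 67.7 and 67.5 CPM. Every library labelled H295R-PM-Ptc+ lay above every library labelled H295R. This was a 1.60-fold difference, a log2 fold change of 0.67 with a standard error of 0.092 (adjusted p = 0.00493, edgeR). With each library left out in turn it lay between 0.59 and 0.77, with an adjusted p of at most 0.0323, and the 3 same-numbered pairs differed by 0.53, 0.69 and 0.82 on the log2 scale.

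ABCB1 is the neighbor of ABCB4 on the same strand, from 87503633 to 87713323, and its protein is P-glycoprotein, for which doxorubicin is a substrate. Its libraries held 9901, 14411 and 13532 counts against 9562, 12438 and 11750, which are 414, 567 and 547 CPM against 374, 500 and 508 CPM. The groups overlapped, and replicate 1 was the lowest library of each. The log2 fold change was -0.15 (95% interval -0.48 to 0.19, adjusted p = 0.700), while with the replicate block it was again -0.15 at an adjusted p of 0.0196, the 3 pairs differing by -0.15, -0.18 and -0.11. Of the 6558 words of 75 bases (the read length) in the annotated ABCB1 transcripts, 54 also occurred in ABCB4, which is 0.823%.

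ABCG2, the breast cancer resistance protein, lies on chromosome 4 from 88090264 to 88231322. It had 166, 82 and 76 counts in the libraries labelled H295R against 57, 34 and 38, or 6.95, 3.23 and 3.07 CPM against 2.23, 1.37 and 1.64. The 3 libraries labelled H295R lay above the other 3, with replicate 1 of that group far above its fellows. By edgeR the log2 fold change of -1.33 (standard error 0.35) was the largest in size among the tested members, a fall under the deposited labels and a rise under the exchanged names. With limma-voom ABCG2 was at -1.24 and ABCA10 at 1.80. The adjusted p of ABCG2 was 0.0770 by edgeR, 0.00451 by DESeq2, 0.106 by limma-voom and 5.39e-05 with the replicate block. Without the library labelled H295R replicate 1 its log2 fold change was -0.85 (adjusted p = 0.0616), and without replicate 1 of both groups -1.07 (adjusted p = 0.00788). An exact permutation test over the 6 libraries gave p = 0.1 for ABCG2 and for ABCB4, two-sided, the smallest that 3 against 3 allow.

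ABCC4 (MRP4), an exporter of cyclic nucleotides, prostaglandins and steroid sulfates, lies on chromosome 13 from 95019829 to 95301433. Its levels were 9.67, 16.1 and 14.3 CPM in the libraries labelled H295R against 6.26, 9.77 and 11.2 CPM. The groups overlapped, since replicate 1 of the libraries labelled H295R lay below replicates 2 and 3 of the others, but each of the 3 pairs was lower, by 0.63, 0.72 and 0.36. The log2 fold change was -0.56 (adjusted p = 0.264 by edgeR, 5.15e-04 with the replicate block), and without replicate 1 of both groups -0.54 (adjusted p = 0.0102).

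**Figure D3:**
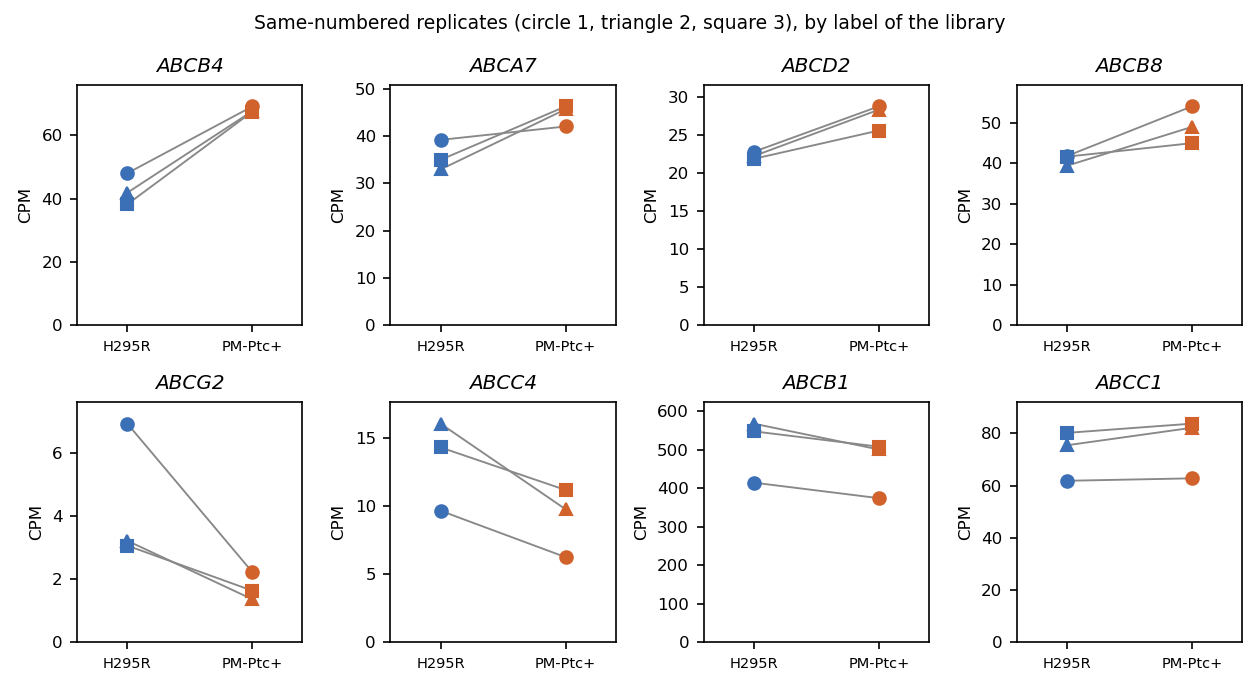
Levels in CPM of 8 ABC genes in each library, with 1 line for each same-numbered pair of replicates and vertical axes that start at 0. The lines of ABCB4, ABCA7, ABCD2 and ABCB8 all rise from the libraries labelled H295R to those labelled H295R-PM-Ptc+, those of ABCG2, ABCC4 and ABCB1 all fall, and replicate 1 (circles) is the highest library of each group for ABCG2 and the lowest for ABCC4, ABCB1 and ABCC1.

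The list of drug and conjugate efflux pumps held 11 members (ABCB1, ABCC1 to ABCC6, ABCC10 to ABCC12 and ABCG2), of which 9 were tested, 6 with a log2 fold change above 0 and 3 below. None had an adjusted p under 0.05 by edgeR without the block, and 3 were called lower and 0 higher with it, which is 33.3% and 0% where 10.4% and 12.1% of all tested genes were called. The median log2 fold change of the 9 was 0.06. In 5 of them all 3 same-numbered pairs were higher and in 3 all 3 were lower, where 26.9% and 25.7% of all tested genes were. ABCC1 (MRP1), a pump of glutathione conjugates and anthracyclines, stood at 61.8, 75.4 and 80.1 CPM against 62.8, 82.1 and 83.7 CPM, a log2 fold change of 0.07 with a 95% interval from -0.23 to 0.37. ABCC5 and ABCC10 gave 0.06 and 0.20 (adjusted p = 0.825 and 0.314 by edgeR, and 0.368 and 0.0502 with the block). ABCC3 (MRP3), at 20 to 38 counts per library, did not overlap between the groups, with 1.05, 0.787 and 0.930 CPM against 1.29, 1.25 and 1.64 CPM (log2 fold change 0.59, adjusted p = 0.218 by edgeR and 0.0898 with the block).

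Transporters of sterols and phospholipids numbered 12, of which 7 were tested. ABCB4 was called higher without the block, and ABCA1 and ABCA7 joined it with the block, which is 14.3% and 42.9% of the 7 where 2.42% and 12.1% of all tested genes were called higher. Their median was 0.10. ABCA7, which moves phospholipids, had 39.2, 32.95 and 35.0 CPM where labelled H295R and 42.1, 45.7 and 46.3 CPM in the others. The groups lay apart, at a log2 fold change of 0.32 (adjusted p = 0.0859 by edgeR, 0.00271 with the block). ABCA7 was called in 1 of the 6 fits that each lacked 1 library, that without H295R replicate 1 (adjusted p = 0.0274, edgeR). Without replicate 1 of both groups the log2 fold change was 0.44 (adjusted p = 0.00234, edgeR). ABCA1, which loads cholesterol and phospholipid onto apolipoprotein A-I, had 5.57, 5.83 and 5.95 CPM against 6.06, 7.32 and 8.81 CPM, groups that did not overlap (log2 fold change 0.35, adjusted p = 0.276 and 0.0447).

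The other sterol and phospholipid transporters were within the spread of their libraries. ABCA2 and ABCA3, abundant at 7.45 and 10.3 RPKM over all libraries, had log2 fold changes of -0.09 and -0.02 (adjusted p = 0.735 and 0.955). ABCG1, which passes cholesterol to high-density lipoprotein, had 39, 62 and 82 counts against 93, 44 and 58, with no direction shared by the 3 pairs. ABCB11, the bile salt export pump of hepatocytes, held 27 to 40 counts in every library.

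On chromosome 17 lie 5 ABCA genes side by side, from 68867292 (ABCA8) to 69327244 (ABCA5), all on the minus strand. Their levels differed widely, as ABCA8 had 3.72 RPKM and ABCA5 2.29 RPKM over all libraries, while ABCA10 had 0 to 17 counts per library and ABCA6 and ABCA9 too few to be tested. None of the 3 tested was called with or without the block. ABCA5 had 388 counts in the library labelled H295R replicate 1 against 993 and 835 in replicates 2 and 3, a difference within a group that was larger than that between the groups (log2 fold change 0.04). Exons of ABCA5 and ABCA10 overlap on the same strand by up to 318 bases, so both levels are uncertain.

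The transporters of mitochondria and other organelles, which work as dimers, included ABCB8 and ABCB6, which were called higher with the block and not without it. ABCB8, of the inner mitochondrial membrane, had 41.8, 39.4 and 41.7 CPM against 54.1, 49.0 and 45.0 CPM, with no overlap (log2 fold change 0.27, adjusted p = 0.134 and 0.00429 with the block). ABCB6, a porphyrin transporter, had 2.64, 2.72 and 2.87 CPM against 3.25, 3.94 and 3.93 CPM, also without overlap (0.43, adjusted p = 0.176 and 0.0472). An exon of ABCB6 shares up to 866 bases with ATG9A on the same strand. Of the words of 75 bases of ABCB6, 45.0% are shared with transcripts of another annotated gene, so its level is uncertain. ABCB10 and the lysosomal peptide transporter ABCB9 had log2 fold changes of -0.05 and 0.18 (adjusted p = 0.872 and 0.545).

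ABCD2, ABCD3 and ABCD4 had log2 fold changes above 0. With all 6 libraries, ABCD2 of these was called higher with the block and none without it. Without replicate 1 of both groups ABCD2 was called without a block (log2 fold change 0.29, adjusted p = 0.0430, edgeR). ABCD2, which imports very-long-chain fatty acids into peroxisomes, had 22.8, 22.2 and 21.9 CPM against 28.8, 28.4 and 25.6 CPM, and the groups lay apart (log2 fold change 0.31, adjusted p = 0.0788 and 0.00279 with the block). ABCD3 and the lysosomal cobalamin transporter ABCD4 gave 0.02 and 0.04 (adjusted p = 0.949 and 0.919). Of the partners, PEX19, which brings peroxisomal membrane proteins to their place, differed by 0.14 on the log2 scale (adjusted p = 0.356 by edgeR, and 0.0380 with the block), and LMBRD1, which works with ABCD4, by -0.15 (adjusted p = 0.378 and 0.108).

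The 4 members that are not transporters were among the most abundant and differed little. ABCF2 had 151, 174 and 172 CPM against 179, 190 and 191 CPM, without overlap (log2 fold change 0.17, adjusted p = 0.323 and 0.00920 with the block). Of its words of 75 bases, 36.1% are shared with other annotated transcripts, mostly a read-through transcript with the next gene. ABCF1 and ABCF3 gave 0.11 and -0.06 and ABCE1 -0.12 (adjusted p = 0.608, 0.744 and 0.726). HBS1L and PELO, which split stalled ribosomes together with ABCE1, stood at 0.18 and 0.13 (adjusted p = 0.338 and 0.414, HBS1L 0.0119 and PELO 0.0654 with the block).

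Of the sulfonylurea receptors, which are the regulatory subunits of ATP-sensitive potassium channels, ABCC9 alone was tested. It held 27, 30 and 31 counts against 53, 47 and 36, or 1.13, 1.18 and 1.25 CPM against 2.07, 1.89 and 1.56, and the groups did not overlap (log2 fold change 0.63, standard error 0.20, adjusted p = 0.127 and 0.0445 with the block). Its pore-forming partner KCNJ8 was far more abundant per length, at 50.2 RPKM in the libraries labelled H295R where ABCC9 had 0.104 RPKM, and its log2 fold change was -0.12 (adjusted p = 0.437). KCNJ11, the partner of ABCC8, held at most 10 counts.

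Among the superfamily members under other symbols, CFTR had 0 counts, and the antigen peptide transporters TAP1 and TAP2 had log2 fold changes of -0.21 and -0.04 (adjusted p = 0.421 and 0.857, TAP1 0.012 with the block). Of the 16 genes listed as partners, sterol sensors or members under other names, 13 were tested, none called without the block, and 3 were called higher and 2 lower with it, or 23.1% and 15.4% where 12.1% and 10.4% of all tested genes were called. The liver X receptor genes NR1H2 and NR1H3, whose proteins induce ABCA1 and ABCG1, gave 0.09 and -0.14 (adjusted p = 0.797 and 0.818), and RXRA, their dimer partner, -0.20 (0.300 and 0.0203 with the block).

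The 50 nearest tested genes on the chromosome were set beside each member. ABCB8 and ABCF2 lie near each other on chromosome 7, at 151028422 and 151207837, and 41 of the 50 tested genes around them were also above 0, with a median log2 fold change of 0.13 against 0.27 and 0.17 for these members. ABCA1 stood against its surroundings, with 42 of 50 neighbors below 0 and a median of -0.19. ABCG2 had 35 of 50 neighbors below 0, with a median of -0.09. Around ABCB4 and ABCB1 the medians were -0.01 and 0.00, and around ABCC4 it was 0.01. The part of the surrounding genes in the values of ABCB8 and ABCF2 was not tested.

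**Figure D4:**
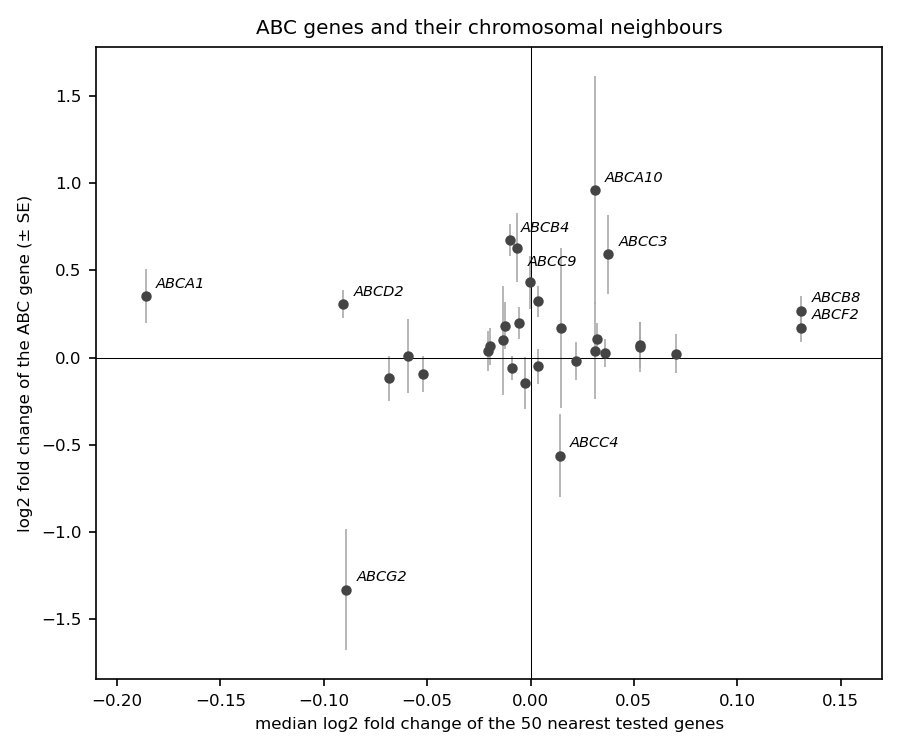
Log2 fold change of each of 31 tested ABC genes (points, bars ± standard error) against the median log2 fold change of its 50 nearest tested genes. ABCB8 and ABCF2 lie at the right, where the neighbors were mostly higher, ABCA1 lies above 0 at the far left, and ABCB4, ABCC9 and ABCC4 lie near a neighbor median of 0.

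Replicate 1 set itself apart in both groups for several members. In 5 of the 33 it was lower than the mean of replicates 2 and 3 by over 0.25 on the log2 scale in both groups (15.2%, against 9.9% of all tested genes) and in 2 it was higher (6.06% against 9.61%). Those lower were ABCA5 (-1.16 and -0.42), ABCC4 (-0.65 and -0.74), ABCE1 (-0.44 and -0.26), ABCB1 (-0.43 and -0.43) and ABCC1 (-0.33 and -0.40, labelled H295R before H295R-PM-Ptc+). Those higher were ABCG2 (1.14 and 0.57) and ABCC2 (0.50 and 0.72), the latter on 4 to 17 counts per library. In 6 of these 7 members, ABCA5, ABCB1, ABCC1, ABCC2, ABCC4 and ABCE1, both differences within a group were larger in size than the log2 fold change between the groups, and in ABCG2 both were smaller.

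Summed over all members, the ABC genes held 1687, 1956 and 1980 CPM under the label H295R and 1737, 1997 and 1984 CPM under H295R-PM-Ptc+ (exact permutation test, two-sided, p = 0.5). Replicate 1 was the lowest of each group, and the groups overlapped, while each of the 3 same-numbered pairs was higher under H295R-PM-Ptc+. The ABCF genes summed to 440 ± 16.3 CPM under H295R-PM-Ptc+ against 410 ± 25.8 CPM (exact permutation test, p = 0.2). The groups overlapped, and here too each of the 3 same-numbered pairs was higher. The ABCC genes (210 ± 21.8 against 202 ± 18.8 CPM, exact p = 0.5) were also higher in each of the 3 pairs. The ABCB genes (651 ± 72.0 against 666 ± 83.6 CPM, p = 0.5 by the same exact test) and the ABCG genes (4.58 ± 1.41 against 7.03 ± 1.57 CPM, exact p = 0.2) were lower in each of the 3 pairs. The permutation test does not use the pairs.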

How the data were processed

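RNA from 3 H295R and 3 H295R-PM-Ptc+ replicates was read from both ends. For mapping to hg38 the authors used STAR 2.4.0a. They took the counts of each gene name with featureCounts and Ensembl gene models, and kept the primary position of reads that mapped to several. The study's methods and the submitters' processing notes (Subread 1.5.0-p3) name different Subread releases, and the former an mRNA kit where the labels give a total RNA kit. The authors deposited raw counts without normalization, and 1 row that names no gene held 0% of them and was left out. Groups and replicate numbers were taken from the labels.

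The test was that of edgeR 4.0.16 under R 4.3.3 (TMM factors, filterByExpr, quasi-likelihood F-test, two-sided, group as the only term, p-values adjusted after Benjamini-Hochberg across the 16710 genes that passed the filter). Standard errors and 95% intervals come from that fit. CPM use TMM-scaled library sizes and RPKM divide them by exon length. The script was checked on simulated counts. Same-numbered replicates share a run code in the labels and were taken as pairs. Across genes their departures from the group mean had correlations of 0.465, 0.280 and 0.202, against -0.324 to 0.134 for other combinations. The departures within a group depend on each other, so these correlations do too. Alternatives were the replicate block, DESeq2 1.42.0, limma-voom 3.58.1, relative log expression factors, no filter, at least 10 counts in every library, and each library left out. Leaving out replicate 1 of both groups was chosen after seeing the data.

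The members are fixed by their symbols, and per-library values are given for those with an adjusted p under 0.05 with or without the block, those at 1 CPM or more whose groups did not overlap, and ABCB1, ABCC1 and ABCG2. Values of 2 members are not reported here. Members and lists were chosen with earlier results of these data known. Promoters are from RefSeq (GRCh38.p14), and words of 75 bases were compared among GENCODE transcripts, which may differ from the authors' annotation.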

Additional observations from a re-analysis of the deposited data

How the results depend on the processing

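ABCB4 kept its direction and an adjusted p under 0.05 in every fit that was run. The count of members called higher, 1 without a block, was 9 with the replicate block. It was 3 without replicate 1 of both groups (ABCA7, ABCB4 and ABCD2). In the 6 fits that each lacked 1 library it was 1 to 2, the 2 being ABCB4 and ABCA7 without H295R replicate 1. The count called lower, 0 without a block, was 3 with the replicate block, 1 with DESeq2, 2 without a filter on low counts (ABCG2 and ABCC4) and 2 without replicate 1 of both groups, and 0 with each library left out. The replicate block turned the sign of no member. All genes called numbered 624, against 3758 when paired by the replicate block, 1111 when unfiltered, 2013 without replicate 1 of both groups, and from 219 (without H295R replicate 3) to 810 over the fits that lack 1 library. The median log2 fold change of the members, 0.07, lay between 0.037 and 0.14 with each library left out, the latter without the library labelled H295R replicate 3. PTCH1 lay between -0.91 and -0.67, and passed an adjusted p of 0.05 in 3 of those 6 fits.

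Members near 0 changed sign, none of them called in either direction. With limma-voom ABCC2 was at -0.015. Without replicate 1 of both groups ABCA2 was at 0.058, ABCA3 at 0.083, ABCA5 at -0.12, ABCA8 at -0.012, ABCB11 at -0.086, ABCD3 at -0.065 and ABCG1 at -0.43. With each library left out, the log2 fold change ran from -0.085 to 0.076 for ABCA3, -0.25 to 0.29 for ABCA5, -0.035 to 0.060 for ABCA8, -0.11 to 0.028 for ABCB10, -0.10 to 0.16 for ABCB11, -0.032 to 0.19 for ABCC1, -0.16 to 0.54 for ABCC2, -0.015 to 0.14 for ABCC5, -0.10 to 0.082 for ABCD3, -0.037 to 0.14 for ABCD4 and -0.22 to 0.36 for ABCG1. The cause was not tested. Tested members under 1 CPM held at most 17 counts in a library, and their 95% intervals were wide, from -0.52 to 2.44 for ABCA10 and from -0.87 to 1.21 for ABCC2.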
